A study of Mus musculus with 8 samples.

Results

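The genes described here drive or mark the cell division cycle. With earlier results of these data known, 45 genes were named by symbol, from the G1 cyclins to the motors of the mitotic spindle. Of these, 43 had a probe set that carried their symbol alone, among 22180 genes measured. Where a gene had several such probe sets, the one with the highest mean was used. Ccnb1 and Ccne2 had no such probe set and were not analysed here. RNA came from the aorta of newborn mice (p0) of strain C57BL/6, either wild-type or lacking fibulin-4, a secreted protein that elastic fibres need to form; each segment, ascending (aortic valve to ductus arteriosus) or descending (vena cava to diaphragm), was pooled from 8 pups of 1 genotype. Wild-type ascending, wild-type descending, knockout ascending and knockout descending aorta had 2 arrays each, called biological replicates by the labels. The fibulin-4 gene itself was not analysed here, and the labels of genotype therefore rest on the submitters.

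A dividing cell passes from G1, where cyclin D and cyclin E kinases release the E2F transcription factors from the retinoblastoma protein, through S phase, where the MCM helicase opens licensed origins, to mitosis, which cyclin B with Cdk1 starts and the anaphase-promoting complex with Cdc20 ends. Inhibitors such as p21 and p27 hold the kinases back. The transcripts of the G2 and M phase genes are repressed in resting cells by a complex that reads CHR elements, and those of S phase genes through E2F sites, so both sets mark cycling cells. Smooth muscle cells of the newborn aorta still divide, and most leave the cycle as the wall matures.

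Many members hold the letters of these elements at their start, and 5 start regions are printed before the values to show them. RefSeq (build GRCm38.p6) gave a window of 250 bases before to 50 bases after the start for 34 of the 43 measured members. The windows were searched on both strands. The CHR element was searched as TTTGAA. The box bound by the factor NF-Y, which often lies near it, was searched as CCAAT. E2F sites were searched in the first of their forms as TTCCCGC and in the other, which can overlap a reversed NF-Y box, as TTGGCGC. CHR letters were in 16 of the 34 members (47.1%) and in 20.2% of the 27025 genes of the promoter table, CCAAT in 26 (76.5%) and in 41.1%, and either E2F form in 8 (23.5%) and in 7.79%. Of the 19 members with a window among the regulators of S, G2 and M phase, the chromosome and centromere genes, the checkpoint genes and the spindle genes, 14 (73.7%) held both CHR and CCAAT, against 7.97% of all genes in the table. Of the 11 replication and nucleotide genes with a window, 2 held both and 6 (54.5%) held E2F letters. Cdk1, Ccnb2 and Cdc20 are mitotic genes that differed between genotypes in the descending aorta at an unadjusted p under 0.05 by limma, though not at an adjusted one. Mcm6 is a replication gene, and Birc5 had the widest difference of the members in that segment. The 150 bases before the start follow for Cdk1 (chr10:69352913-69353062, minus strand), Ccnb2 (chr9:70421555-70421704, minus strand), Cdc20 (chr4:118437344-118437493, minus strand), Mcm6 (chr1:128359706-128359855, minus strand) and Birc5 (chr11:117849087-117849236, plus strand). Each runs 5′ to 3′ on the strand of its gene, and capitals mark the letters searched.
Cdk1: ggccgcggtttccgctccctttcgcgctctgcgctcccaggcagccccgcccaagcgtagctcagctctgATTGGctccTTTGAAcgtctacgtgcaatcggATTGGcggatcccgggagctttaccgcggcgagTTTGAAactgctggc
Ccnb2: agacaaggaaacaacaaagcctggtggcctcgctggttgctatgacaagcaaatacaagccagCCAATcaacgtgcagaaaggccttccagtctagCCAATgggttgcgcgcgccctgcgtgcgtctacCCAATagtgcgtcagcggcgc
Cdc20: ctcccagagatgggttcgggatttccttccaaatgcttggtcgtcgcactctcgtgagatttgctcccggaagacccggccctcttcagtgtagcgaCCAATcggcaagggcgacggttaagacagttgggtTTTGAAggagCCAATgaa
Mcm6: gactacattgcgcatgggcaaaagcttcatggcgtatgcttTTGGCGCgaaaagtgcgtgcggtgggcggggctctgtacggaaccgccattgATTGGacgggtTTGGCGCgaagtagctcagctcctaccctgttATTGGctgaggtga
Birc5: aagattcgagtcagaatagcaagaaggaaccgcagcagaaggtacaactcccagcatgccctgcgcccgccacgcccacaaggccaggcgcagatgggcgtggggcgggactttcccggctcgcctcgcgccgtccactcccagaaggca
Counted from the start, with bases before it negative, the 3 CCAAT boxes of Ccnb2 began at -87, -54 and -21, each 33 bases from the next. Its CHR letters began at -167 and 5, both outside the printed stretch. In Cdk1 CHR letters began at -71 and -15, and the reversed CCAAT boxes at -80 and -48 lay 32 bases apart. A further reversed CCAAT box at -208 and E2F letters at -178 lay outside the printed stretch. Mcm6 held E2F letters at -109 and -46. The Birc5 window held none of the letters searched. A match is a description of the sequence, and binding was not measured.

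The values were log2 RMA values, and 8 arrays limit the precision: over the members, the median SE was 0.29 for 1 segment and 0.20 for the average of both. A pair of wild-type arrays stood apart. The interquartile range of the 22180 genes was 1.80 on wild-type ascending replicate 2 and 1.74 on wild-type descending replicate 2, while the remaining 6 arrays ran from 2.14 to 2.28. Members were bright genes: their mean log2 values ran from 4.46 (Cdc6) to 8.73 (Pcna), and 41 of 43 lay in the brightest 40% of all genes. On the narrow arrays bright genes were lower: in the brightest 20% of all genes the median knockout minus wild-type difference was 0.24 averaged over segments, and 0.09 without both narrow arrays. In the next 20% these medians were 0.14 and 0.03. Of the members, 24 lay in the brightest 20% and 17 in the next 20%. The knockout comparisons below are therefore followed by their values without that pair of arrays. Each segment then has 1 wild-type array, and the spread within groups comes from the knockout arrays alone. Counts by p without that pair, where printed below, are therefore a description only, and no conclusion is drawn from them. Leaving out any 1 array likewise leaves 1 array in its group, so counts by p from those fits are also a description only. Of the 43 members, 25 had their lowest value on wild-type descending replicate 2 and 10 on wild-type ascending replicate 2, whereas 28 had their highest value on a knockout descending array. The mean deviation of the 36 members other than the G1 genes and the inhibitors, from each gene's mean over all arrays, was 0.05 and -0.24 in wild-type ascending, 0.04 and -0.43 in wild-type descending, 0.05 and 0.00 in knockout ascending and 0.27 and 0.25 in knockout descending aorta. The knockout descending pools were thus the highest, and the narrow wild-type arrays the lowest, on this scale.

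**Figure D1:**
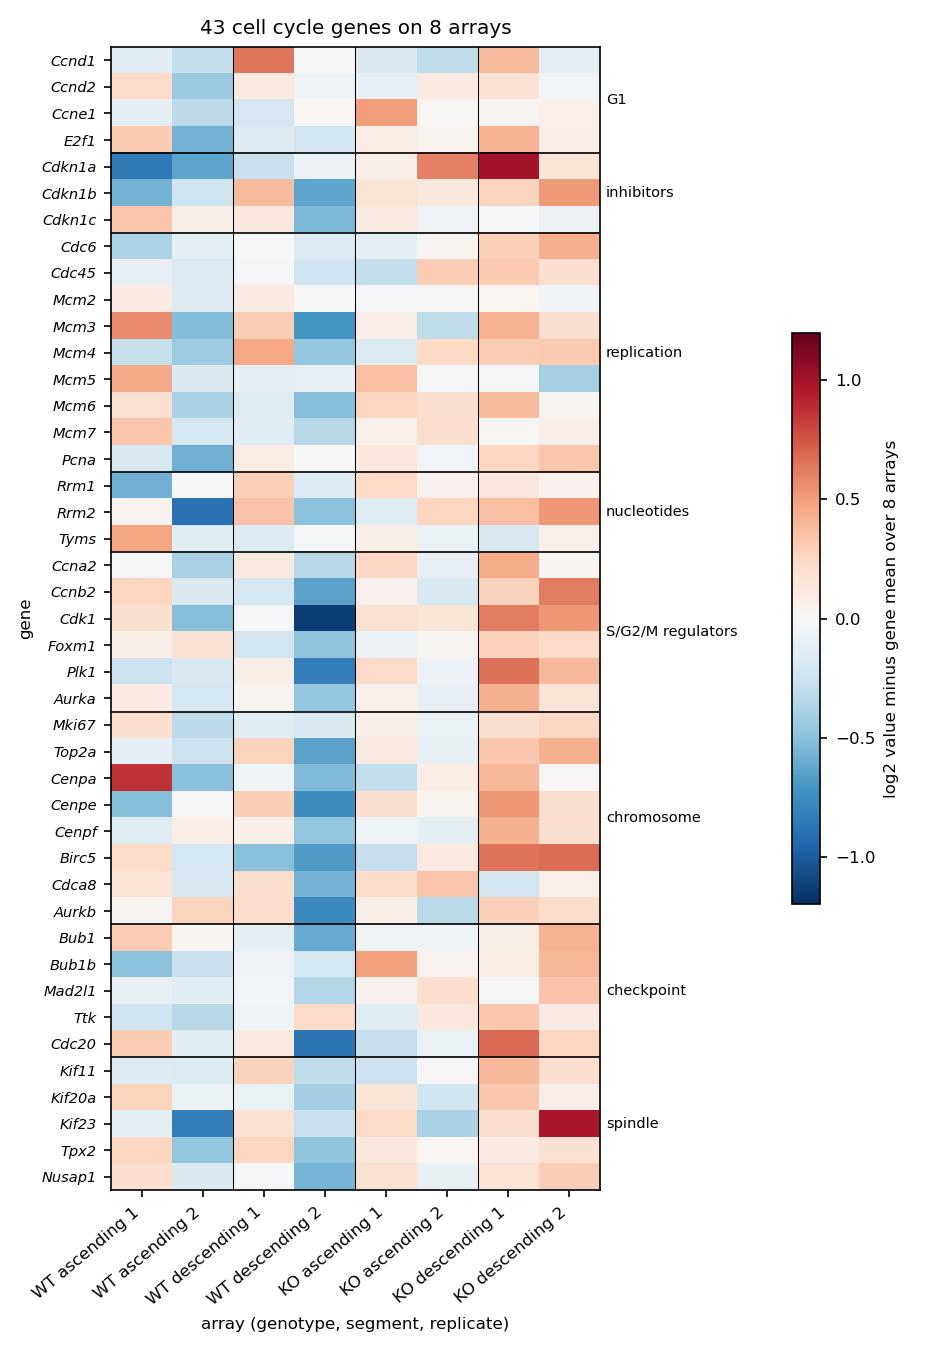
Log2 value minus the gene's mean over 8 arrays (colour) for 43 genes (rows, by role) on each array (columns). The column of wild-type descending replicate 2 is the lowest for 25 genes, and 28 genes have their highest value in a knockout descending column.

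**Figure D2:**
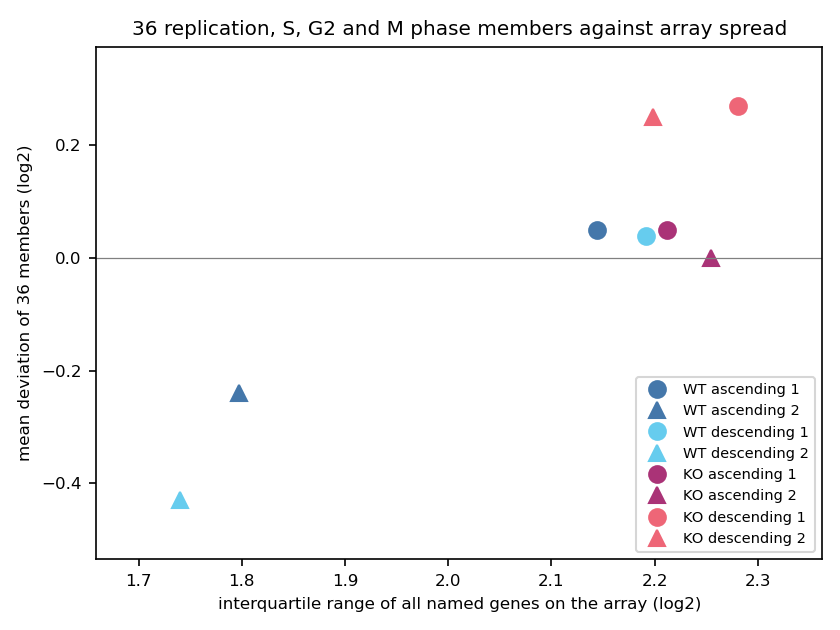
Mean deviation of 36 members (y, log2) against the interquartile range of 22180 genes (x, log2) on each of 8 arrays, circles for replicate 1 and triangles for replicate 2. The narrow wild-type arrays, at 1.80 and 1.74, lie lowest, at -0.24 and -0.43.

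The first comparison asked whether cell cycle genes differed between knockout and wild-type when both segments were averaged. No member passed limma's test at an adjusted p under 0.05 (0 of 43, against 0.0721% of all genes). At an unadjusted p under 0.05 there were 5 higher members (7.57% of all genes) and 0 lower ones (3.83%): Cdkn1a, Cdk1, Plk1, Birc5 and Bub1b. The median log2 difference of the members was 0.27, with 38 of 43 above 0 (49.8% of all genes). It was 0.00 for all genes tested, 0.24 for the brightest 20% of them and 0.14 for the next 20%. Without both narrow arrays the median was 0.08, with 29 above 0 (48.9% of all genes) and 2 higher members, Cdkn1a and Bub1b, at an unadjusted p under 0.05 (6.76% of all genes higher, 6.69% lower). The count of 5 at an unadjusted p under 0.05 moved when single arrays were left out. Leaving out wild-type descending replicate 2 gave a median of 0.15, and knockout ascending replicate 1 a median of 0.24. Leaving out replicate 1 of the wild-type ascending arrays gave a median of 0.35 and that of the wild-type descending ones 0.37. For 9 members the arrays of the 2 genotypes did not overlap in either segment and the knockout was higher (7.81% of all genes; 4.04% were lower in this way, with 0 members).

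Among the inhibitors, Cdkn1a, which encodes p21, a p53 target that blocks cyclin-dependent kinases, had the widest averaged difference of all members. Its log2 values were 6.38 and 6.60 in wild-type ascending, 6.96 and 7.16 in wild-type descending, 7.30 and 7.84 in knockout ascending and 8.23 and 7.38 in knockout descending aorta. All 4 knockout arrays lay above all 4 wild-type arrays, as they did for 4.76% of all genes. The averaged log2 difference was 0.91 (SE 0.24; limma unadjusted p = 0.00347, adjusted p = 0.244), or 1.88-fold, and it was 1.02 without both narrow arrays. It did not pass the adjusted test under any of the alternatives, where it ran from 0.70 to 1.12.

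Cdkn1b, which encodes the inhibitor p27, stood at 5.85 and 6.17 in wild-type ascending, 6.79 and 5.78 in wild-type descending, 6.57 and 6.54 in knockout ascending and 6.68 and 6.92 in knockout descending aorta. The knockout arrays lay above the wild-type ones in the ascending segment and overlapped them in the descending segment, and the averaged difference was 0.53 (SE 0.24; limma adjusted p = 0.443), or 0.36 without both narrow arrays. Cdkn1c, the imprinted gene of the inhibitor p57, was at 6.73 and 6.47, then 6.54 and 5.86 in the wild-type segments, and at 6.51 and 6.36, then 6.40 and 6.33 in the knockout ones, in the same order. Its groups overlapped, with an averaged difference of 0.00 (SE 0.20), or -0.24 without both narrow arrays. The 3 inhibitors thus had different values in the same arrays; whether they differ from each other was not tested.

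Of the 4 measured G1 genes none had an unadjusted p under 0.05 in any knockout comparison. Ccnd1 and Ccnd2, the D-type cyclins that answer growth factors, stood at -0.10 and 0.07 in the averaged difference, and Ccne1, the cyclin of S phase entry, and E2f1 at 0.30 and 0.32. Their median was 0.19. When both narrow arrays were left out the median was -0.03, and the values were -0.31, -0.14, 0.31 and 0.08 in the same order.

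The 9 genes of origin licensing and replication had a median of 0.26, from -0.04 (Mcm5) to 0.44 (Mcm6), and 0.08 without both narrow arrays. Pcna, the sliding clamp of the replication fork and the brightest member, was at 8.54 and 8.15 in wild-type ascending, 8.82 and 8.73 in wild-type descending, 8.86 and 8.70 in knockout ascending and 8.99 and 9.06 in knockout descending aorta. Its knockout arrays lay above the wild-type arrays of the same segment, by 0.34 (SE 0.18; limma adjusted p = 0.492) on average, or 0.22 without both narrow arrays. The 6 subunits of the MCM helicase did not share a value: the averaged difference was -0.02 for Mcm2, 0.19 for Mcm3, 0.35 for Mcm4, -0.04 for Mcm5, 0.44 for Mcm6 and 0.18 for Mcm7, each with an unadjusted p above 0.05. Without both narrow arrays these were -0.11, -0.33, 0.08, -0.19, 0.20 and -0.01, with Mcm3 and Mcm7 now below 0. Cdc6, which loads the helicase onto origins, and Cdc45, which activates it, stood at 0.33 and 0.26, and at 0.35 and 0.18 without that pair. Of the 3 genes of deoxynucleotide synthesis, the ribonucleotide reductase subunits Rrm1 and Rrm2 stood at 0.25 and 0.50, and the thymidylate synthase gene Tyms at -0.08. With that pair left out they stood at 0.27, 0.06 and -0.20, and their median of 0.25 was 0.06. Rrm2 had a second, dimmer probe set with a difference of 0.15.

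The mitotic groups lay above 0 in every one of their 24 measured members (49.8% of all genes) when both segments were averaged. Their median was 0.27, against 0.24 for the brightest 20% of all genes and 0.14 for the next 20%. Without both narrow arrays 18 of 24 were above 0 (48.9% of all genes). The median was then 0.11, against 0.09 for the brightest 20% and 0.03 for the next 20%. Bub1b, which encodes the checkpoint kinase BubR1, was at 5.57 and 5.79 in wild-type ascending, 6.00 and 5.85 in wild-type descending, 6.55 and 6.10 in knockout ascending and 6.15 and 6.46 in knockout descending aorta. As for Cdkn1a, all knockout arrays lay above all wild-type arrays, and the averaged difference was 0.51 (SE 0.19; limma adjusted p = 0.378), or 0.53 without both narrow arrays. Mad2l1, whose product holds Cdc20 back until chromosomes are attached, was the third member with such an order: 6.45, 6.40, 6.50 and 6.18 on the wild-type arrays and 6.59, 6.74, 6.54 and 6.88 on the knockout arrays (difference 0.31, SE 0.18; limma adjusted p = 0.538; 0.21 without both narrow arrays).

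Plk1, a kinase of mitotic entry and spindle assembly, was at 6.62 and 6.69 in wild-type ascending, 6.95 and 6.06 in wild-type descending, 7.11 and 6.81 in knockout ascending and 7.54 and 7.27 in knockout descending aorta. The knockout arrays lay above the wild-type ones within each segment, and the averaged difference was 0.60 (SE 0.23; limma adjusted p = 0.381), or 0.40 without both narrow arrays. Cdk1, the kinase of mitotic entry, was at 8.25 and 7.55 in wild-type ascending, 8.03 and 6.93 in wild-type descending, 8.24 and 8.20 in knockout ascending and 8.67 and 8.58 in knockout descending aorta. In both segments the lower wild-type array was the narrow one; the averaged difference was 0.74 (SE 0.27; limma adjusted p = 0.368), and 0.29 without both narrow arrays. Mki67, the gene of the proliferation antigen Ki-67, was at 8.65 and 8.13, then 8.30 and 8.26 in the wild-type segments, ascending first, and at 8.52 and 8.37, then 8.64 and 8.69 in the knockout ones. Its groups overlapped in the ascending but not in the descending segment, and the averaged difference was 0.22 (SE 0.18; limma adjusted p = 0.661), or 0.08 without both narrow arrays.

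**Figure D3:**
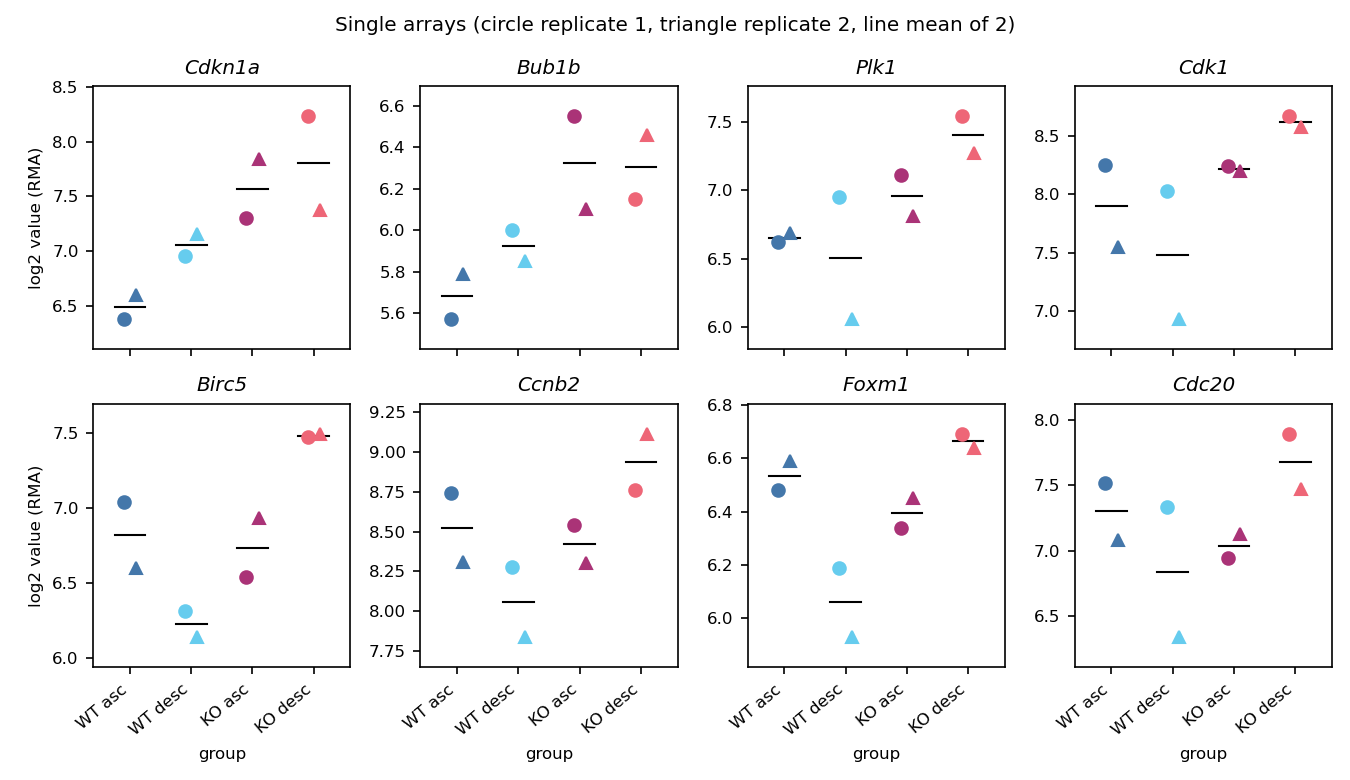
Log2 value on each array (y) for 8 members in 4 groups (x); circles are replicate 1, triangles replicate 2 and lines the mean of 2 arrays, and each panel has its own y axis. All 4 knockout arrays lie above all 4 wild-type arrays for Cdkn1a and Bub1b, while both Birc5 values of the knockout descending group, 7.47 and 7.49, lie above every other array.

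The second comparison was knockout against wild-type in the ascending aorta. The members had a median log2 difference of 0.14, with 30 of 43 above 0 (49.3% of all genes). The median was -0.01 for all genes, 0.25 for the brightest 20% of them and 0.12 for the next 20%. No member passed limma's adjusted test (0.0% of all genes did). At an unadjusted p under 0.05 there were 2 higher members (5.31% of all genes), Cdkn1a at 1.08 (SE 0.33; limma adjusted p = 0.436) and Bub1b at 0.64 (SE 0.27; limma adjusted p = 0.540), and 0 lower ones (3.60%). The knockout arrays lay above both wild-type arrays for 15 members (21.5% of all genes) and below them for 2 (18.3%), Foxm1 and Bub1. The mitotic groups had a median of 0.05, with values from -0.29 (Cenpa, the centromeric histone) to Bub1b at the upper end; Cdc20, the activator of the anaphase-promoting complex, stood at -0.26 and Aurkb, the kinase of the chromosomal passenger complex, at -0.27. Without both narrow arrays the mitotic median was -0.05, with Cenpa at -0.97, Cdc20 at -0.48, Aurkb at -0.15, Bub1b at 0.76 and, outside these groups, Cdkn1a at 1.19. When both narrow arrays were left out the median of the members was -0.02 and 21 were above 0 (47.2% of all genes), with 4 higher and 2 lower members at an unadjusted p under 0.05 (8.60% and 9.13% of all genes). Without wild-type ascending replicate 2 alone the median was likewise -0.02, and with replicate 1 left out in its place it was 0.27. After a second quantile normalization the median was 0.05 and the count at an unadjusted p under 0.05 was 1.

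The third comparison was the same contrast in the descending aorta. There the mitotic groups had a median of 0.51, or 0.26 without both narrow arrays. Bub1b, Ttk and Cdca8 had wider differences in the ascending aorta. The median of the members was 0.44, with 40 of 43 above 0 (53.7% of all genes). It was 0.03 for all genes, 0.23 for the brightest 20% of them and 0.15 for the next 20%. No member passed limma's adjusted test (0.00451% of all genes did). At an unadjusted p under 0.05 there were 6 higher members (3.63% of all genes), all mitotic, and 0 lower ones (2.32%). Both knockout arrays lay above both wild-type arrays for 27 members (21.6% of all genes), and for 0 they lay below (15.8%). Without both narrow arrays the median was 0.23, 34 of 43 were above 0 (53.8% of all genes), and 2 members, Birc5 and Cdk1, had an unadjusted p under 0.05 (3.13% of all genes for higher ones, 3.22% for lower); in the brightest 20% of all genes the median was then 0.04. A second quantile normalization gives all 8 arrays the same spread over all probe sets. The median was then 0.43 for the members and 0.09 for all genes, and the count at an unadjusted p under 0.05 was 8. Leaving out wild-type descending replicate 2 alone gave a median of 0.23. Leaving out knockout descending replicate 1 gave a median of 0.36, and wild-type descending replicate 1 a median of 0.62.

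Birc5 encodes survivin, the subunit that anchors the chromosomal passenger complex. It was at 7.04 and 6.60 in wild-type ascending, 6.31 and 6.14 in wild-type descending, 6.54 and 6.93 in knockout ascending and 7.47 and 7.49 in knockout descending aorta. The wild-type descending arrays were the 2 lowest and the knockout descending arrays the 2 highest of all. The descending log2 difference was 1.26 (SE 0.27; limma unadjusted p = 0.00101, adjusted p = 0.487), or 2.39-fold, and 1.17 without both narrow arrays.

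Ccnb2, a B-type cyclin and partner of Cdk1, was at 8.74 and 8.31 in wild-type ascending, 8.28 and 7.84 in wild-type descending, 8.54 and 8.30 in knockout ascending and 8.76 and 9.11 in knockout descending aorta. Between the genotypes only the descending groups were apart, by 0.87 (SE 0.29, limma adjusted p = 0.759), and by 0.65 without both narrow arrays. Foxm1, the transcription factor that activates G2 and M phase genes, was at 6.48 and 6.59 in wild-type ascending, 6.19 and 5.93 in wild-type descending, 6.34 and 6.45 in knockout ascending and 6.69 and 6.64 in knockout descending aorta. Its knockout arrays lay below the wild-type ones in the ascending and above them in the descending segment, where the difference was 0.61 (SE 0.24; limma adjusted p = 0.823), or 0.48 without both narrow arrays.

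Cdc20 was at 7.52 and 7.08 in wild-type ascending, 7.33 and 6.34 in wild-type descending, 6.94 and 7.13 in knockout ascending and 7.89 and 7.47 in knockout descending aorta. The wild-type descending value of 6.34 came from the narrow array, and the descending difference of 0.84 (SE 0.35; limma adjusted p = 0.824) was 0.35 without both narrow arrays. In the same segment Cdk1 stood at 1.15 (SE 0.38; limma adjusted p = 0.759) and Plk1 at 0.90 (SE 0.32; limma adjusted p = 0.785), and without both narrow arrays at 0.60 and 0.46.

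The other mitotic members had an unadjusted p above 0.05 in the descending aorta. There the remaining regulators Aurka, a spindle pole kinase, and Ccna2, the S phase and G2 cyclin, stood at 0.51 and 0.35, and at 0.25 and 0.13 without both narrow arrays. Among the chromosome genes Top2a, which untangles sister chromatids, and the centromere genes Cenpe, Cenpf and Cenpa lay between 0.50 and 0.58, Aurkb at 0.53, and Cdca8, the borealin gene of the same passenger complex as Birc5, at 0.10. With that pair left out Top2a was at 0.10, Cenpe at 0.06, Aurkb at 0.04 and Cdca8 at -0.29, while Cenpf was at 0.23 and Cenpa at 0.26. The median of the chromosome group, Birc5 included, was 0.52 with all arrays and 0.17 without that pair. The checkpoint kinases Bub1 and Ttk stood at 0.61 and 0.12, and at 0.36 and 0.27 without both narrow arrays. The spindle genes ran from 0.25 (Tpx2, which nucleates microtubules around chromosomes) over Kif11, Kif20a and Nusap1 to 0.63 (Kif23, a motor of cytokinesis), with a median of 0.44. Without both narrow arrays Tpx2 stood at -0.12, Kif11 at 0.03 and Kif23 at 0.41, and the median was 0.24. The replication genes had a descending median of 0.31, or 0.18 without that pair, and none had an unadjusted p under 0.05 with all arrays.

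**Figure D4:**
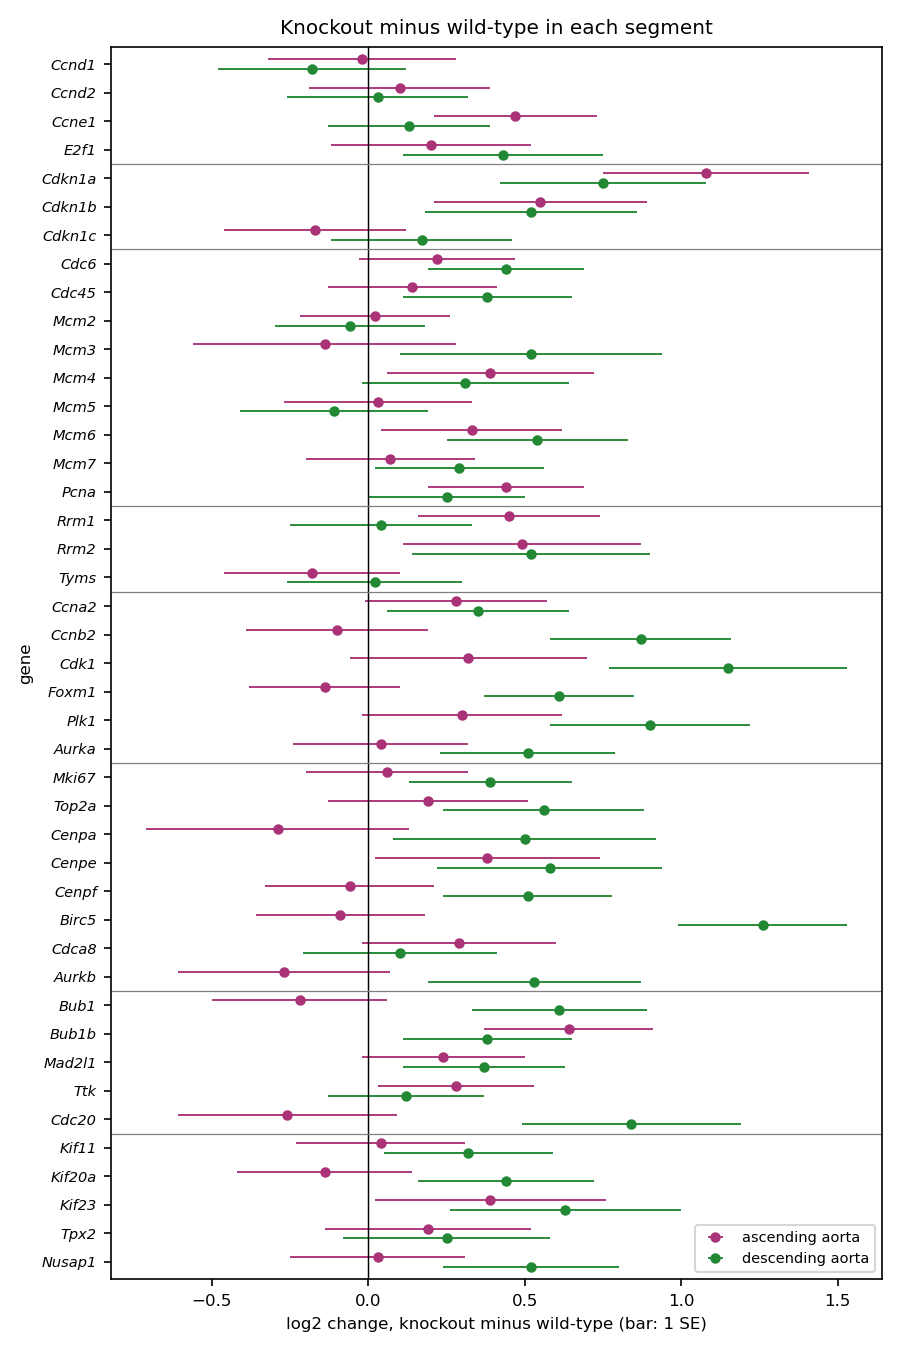
Log2 change, knockout minus wild-type (x; points are estimates, bars 1 SE, 2 arrays a group), for 43 genes (y) in the ascending and the descending aorta. Birc5, Cdk1, Ccnb2, Plk1 and Cdc20 lie furthest right in the descending aorta, from 0.84 to 1.26, and Cdkn1a, at 1.08, in the ascending one.

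Whether the knockout difference itself differed between segments was tested with the interaction of genotype and segment. The median difference, ascending minus descending, was -0.23 over the members and -0.03 over all genes, and 13 of 43 members were above 0 (47.6% of all genes). No member passed limma's adjusted test (0.0% of all genes did), and 2 had an unadjusted p under 0.05 and a lower value in the ascending segment (1.68% of all genes, and 1.62% higher with 0 members): Birc5 at -1.35 (SE 0.38) and Ccnb2 at -0.97 (SE 0.41), each with a limma adjusted p of 1. Cdc20 at -1.11 (SE 0.50) and Foxm1 at -0.75 (SE 0.34) had unadjusted p of 0.0522 and 0.0543 by limma. When both narrow arrays were left out the median was -0.17, Birc5 stood at -1.48, Ccnb2 at -0.97, Cdc20 at -0.83 and Foxm1 at -0.56. Without wild-type descending replicate 2 alone the median was -0.02, and without wild-type descending replicate 1 it was -0.44. Leaving out wild-type ascending replicate 2 gave a median of -0.45, and wild-type ascending replicate 1 a median of -0.10.

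Between segments of 1 genotype, the ascending minus descending difference of the members had a median of 0.08 in wild-type and -0.24 in knockout aorta. In wild-type 24 of 43 were above 0 (51.7% of all genes) and in the knockout 9 (48.3%). In wild-type 0 of 43 had an unadjusted p under 0.05 by limma (3.21% of all genes were higher and 2.98% lower) and 0 an adjusted one (0.00902%), and 5 lay without overlap in each direction (15.9% of all genes higher, 14.1% lower). Among these, Birc5, Foxm1 and Ccnb2 were higher in the ascending segment, and Cdkn1a, Bub1b and Pcna in the descending one. In the knockout 0 passed the adjusted test (0.0% of all genes) and 1, Birc5 at -0.75, had an unadjusted p under 0.05 by limma (2.04% of all genes for lower ones, 2.0% for higher). There 20 members were lower without overlap in the ascending segment (20.8% of all genes) and 2, Mcm5 and Cdca8, were higher (18.3%). The wild-type median was 0.00 without both narrow arrays, with 1 higher and 3 lower members at an unadjusted p under 0.05 (8.35% and 6.91% of all genes). It was 0.24 without replicate 1 and -0.13 without replicate 2 of the wild-type descending arrays. Without replicate 2 of the wild-type ascending ones it was 0.20, and without their replicate 1 it was -0.06. The knockout median ran from -0.31 to -0.19 when 1 array at a time was left out.

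How closely the members moved together over the 8 arrays is a description only, since the arrays share the difference in spread above. Pearson's r of a gene with the mean deviation of the other members outside the G1 and inhibitor groups was 0.98 for Cdk1, 0.95 for Aurka, 0.93 for Top2a and 0.91 for Nusap1. It was 0.83 for Mcm3 and Mcm6 and 0.82 for Rrm2, but -0.01 for Mcm5, 0.04 for Tyms and 0.16 for the checkpoint kinase gene Ttk. Cdkn1a had r = 0.44 and Ccnd1 r = 0.30. Among 21855 genes outside the lists, the 3 most like that mean were Maml1, a coactivator of Notch signalling (r = 0.990), Cobll1 (0.983) and Loxl3, a lysyl oxidase of the matrix (0.981). Maml1 was at 5.80 and 5.64 on the narrow arrays and between 6.34 and 6.74 on the other 6.

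Further genes of the cycle were counted from 5 lists, and 0 of their genes passed limma's adjusted test in any knockout comparison. Of 67 other G2 and M phase genes, 62 were above 0 in the averaged difference (median 0.23), with 12 higher and 1 lower at an unadjusted p under 0.05 (7.57% and 3.83% of all genes, and 49.8% above 0). Their descending median was 0.36, with 12 higher (3.63% of all genes) and 0 lower (2.32%). Their ascending one was 0.16, with 2 higher (5.31%) and 1 lower (3.6%); without both narrow arrays the averaged, ascending and descending medians were 0.11, 0.01 and 0.18. Cks2, a small subunit that binds Cdk1, stood at 1.07 (SE 0.28; limma adjusted p = 0.245) in the averaged difference, Stmn1, a microtubule destabiliser, at 0.73 and Anln, a protein of the cleavage furrow, at 0.68; without both narrow arrays they stood at 1.14, 0.97 and 0.51.

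The S phase lists had lower medians. For 32 other licensing and replication genes the averaged median was 0.09, with 22 above 0 (49.8% of all genes), and -0.08 without both narrow arrays. At an unadjusted p under 0.05, 0 were higher and 0 lower (7.57% and 3.83% of all genes). Gmnn, whose product geminin blocks relicensing, stood at 0.48, its target Cdt1 at 0.37 and Uhrf1 at 0.37. Without that pair they stood at 0.25, 0.33 and 0.09. For 19 repair and checkpoint genes the averaged median was 0.09, and -0.08 without both narrow arrays. Of these 19, 1 was higher and 1 lower at an unadjusted p under 0.05, near the share over all genes (7.57% and 3.83%). Chek2, a kinase of the DNA damage checkpoint, stood at 0.50, the recombination gene Rad54l at -0.49 and Atad2 at 0.28, or 0.53, -0.38 and 0.06 without that pair.

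A further list of 33 genes held other cyclins and CDKs, pocket proteins, E2Fs and their partners, INK4 inhibitors, and drivers such as Myc and Mybl2. Its median was 0.24 in the averaged difference and 0.10 without both narrow arrays, with 6 higher and 0 lower at an unadjusted p under 0.05 (7.57% and 3.83% of all genes). Fzr1, which keeps the anaphase-promoting complex active in G1, was at 6.85, 6.47, 6.21 and 6.06 on the wild-type and 7.07, 7.14, 7.17 and 7.15 on the knockout arrays, a difference of 0.73 (SE 0.18; limma adjusted p = 0.217) with all knockout arrays above all wild-type ones (4.76% of all genes). E2f4, a repressor of resting cells, stood at 0.88 and Wee1, which inhibits Cdk1, at 0.63; without both narrow arrays Fzr1, E2f4 and Wee1 stood at 0.60, 0.54 and 0.35. Of 21 p53 target genes, the class to which Cdkn1a belongs, 14 were above 0 (49.8% of all genes) with a median of 0.11, and 0.07 without both narrow arrays. At an unadjusted p under 0.05, 4 were higher (7.57% of all genes) and 1 lower (3.83%). Btg2, an antiproliferative gene, stood at 0.84 (SE 0.21; limma adjusted p = 0.237), Mdm2, the p53 ubiquitin ligase, at 0.63 and Plk2 at 0.50, or 0.63, 0.30 and 0.34 without that pair.

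The dissected pieces held other cells that could divide, and in bulk RNA fewer cells of a type and less RNA per cell cannot be told apart. Summed levels below are sums of unlogged values over a list on 1 array. Smooth muscle markers fitted the labelled tissue: 12 of 12 lay above the median gene (Acta2 at a mean of 12.25, Myh11 at 9.03), with sums from 11248 to 12070 in wild-type and from 12683 to 15208 in knockout arrays and 10 of 12 above 0 in the averaged difference (median 0.27). Beside the descending differences, cardiomyocyte markers were higher on the knockout arrays, with sums of 4136 to 4454 against 1006 to 2056 in wild-type and 10 of 12 above 0 (median 0.81; Myh6 1.41, Myl7 2.28), and neuronal and glial markers had 8 of 9 above 0 (median 0.42; sums 431 to 457 against 278 to 323; Th 0.42, Dbh 1.09; 6 of 9 below the median gene). Adipocyte markers had 1 of 12 above 0 there (median -0.97; sums 3364 to 3476 against 6168 to 7361; Ucp1 -3.35, Cidea -1.57; 2 below the median gene). Myeloid markers had 12 of 12 above 0 in both segments, with descending sums of 2871 to 3837 against 2242 to 2644 (median 0.45) and ascending sums of 3078 to 3416 against 1436 to 2389 (median 0.82; Adgre1 1.14, Csf1r 0.35).

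In the ascending aorta skeletal muscle markers had 1 of 12 above 0 (median -1.61; sums 730 to 1483 against 2363 to 6769; Mylpf -2.93, Ckm -2.12; Myh3 and Chrna1 below the median gene), and endothelial markers 2 of 12 (median -0.71; sums 1053 to 1165 against 1664 to 2046; Pecam1 -0.65, Cdh5 -0.95; Robo4 below the median gene). Thymocyte markers had 9 of 10 above 0 in the averaged difference (median 0.16; Cd3e 0.60 and Cd3d -0.16 in the ascending aorta), with sums of 271 to 410 in wild-type and 385 to 470 in knockout arrays, and the defining genes Rag2, Cd4, Dntt and Themis lay below the median gene. Erythroid markers had 3 of 8 above 0 (median -0.04; sums 244 to 320; Slc4a1 0.01 and Klf1 0.67 in the ascending aorta) and 7 of 8 lay below the median gene, among them Klf1 and Rhag. Fibroblast markers had 9 of 11 above 0 in the averaged difference (median 0.18; sums 7454 to 9701; Pdgfra 0.12 and Dpt -0.51 in the ascending aorta). In the descending aorta skeletal muscle markers had 8 of 12 above 0 (median 0.51, Mylpf 0.98, Ckm 1.13) and endothelial ones 4 of 12 (median -0.08). Adipocyte markers had 0 of 12 above 0 in the ascending aorta (median -0.47). Cardiomyocyte markers had 7 of 12 above 0 there (median 0.13), and neuronal and glial ones 5 of 9 (median 0.15). Without both narrow arrays the skeletal muscle median in the ascending aorta was -0.70, the endothelial one -0.76 and the myeloid one 0.47. In the descending aorta the medians were then 0.51 for cardiomyocyte, 0.58 for neuronal and glial, -1.27 for adipocyte, 0.43 for myeloid and 0.41 for skeletal muscle markers. In the averaged difference they were 0.29 for smooth muscle, 0.22 for thymocyte, 0.01 for erythroid and 0.05 for fibroblast markers. The part of these cells in the values of the cell cycle genes was not tested.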

How the data were processed

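Pools of aortic RNA (5 ng of total RNA each, amplified and labelled with biotin) were hybridised to 8 arrays of 4 groups, per the labels' protocols. The authors deposited log2 values per probe set, for which the submitters' processing notes name RMA in Expression Console. The software version and how probe sets were defined: not given in the sources used here. Differences of dim genes are compressed by such summaries. Of 41345 probe sets, 23521 had 1 gene symbol, and the one with the highest mean was kept for each of 22180 genes.

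limma 3.58.1 (R 4.3.3) was fitted with a mean per group over all 8 arrays (4 residual and 5.52 prior degrees of freedom), with 6 comparisons; calls used Benjamini-Hochberg adjusted p under 0.05 over all 22180 genes. Alternatives were 9 settings and leaving out each of 8 arrays. The members and the lists (5 pathway and 10 cell type lists) were chosen with earlier results of these data known. Array values are printed for each member with an unadjusted p under 0.05 in a knockout comparison, for the inhibitors, Mki67 and Pcna, and for Mad2l1, chosen after its values were seen; each pathway list gives its 3 genes with the smallest p in the averaged difference. Replicate numbers do not pair the pools in the labels, so the main fit has no block. Promoter windows came from RefSeq, build GRCm38.p6. Python 3.11.15 with matplotlib 3.10.9 drew the figures.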

Additional observations from a re-analysis of the deposited data

Results flagged for a closer look

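Among the members, 2 had a knockout difference that was unequal in the segments at an unadjusted p under 0.05 in limma's interaction test, each lower in the ascending aorta (1.68% of all genes were, and 1.62% higher). For Birc5 the ascending minus descending difference was -1.35 (unadjusted p = 0.00582, adjusted p = 1), from -0.09 in the ascending and 1.26 in the descending aorta. For Ccnb2 it was -0.97 (unadjusted p = 0.0387, adjusted p = 1), from -0.10 and 0.87. Neither passed the adjusted test.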

How the results depend on the processing

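No member was called at an adjusted p under 0.05 in any of the 6 comparisons under any alternative run, and the differences of the members named for an unadjusted p under 0.05 in a knockout comparison kept their sign in that comparison. Counts below are members at an unadjusted p under 0.05. In the averaged difference the count of 5 was 8 after centring arrays on their medians. In the ascending aorta the count of 2 was 1 after a second quantile normalization, 1 with every row of the table and 1 with only the groups compared. In the descending aorta the median of 0.44 was 0.23 without both narrow arrays. The count of 6 and this median were 8 and 0.43 after quantile normalization, and 8 and 0.55 after centring. The wild-type segment count of 0 was 1 after quantile normalization, 1 without the dimmest 25% of genes and 4 without both narrow arrays. The knockout segment count of 1 was 2 with only the groups compared. The count of 2 for the difference between segments was 1 after centring, 4 after quantile normalization and 1 with every row. The cause was not tested. Leaving out 1 array at a time gave counts of 2 to 13 (averaged), 1 to 4 (ascending), 1 to 15 (descending), 0 to 5 (wild-type segments), 0 to 2 (knockout segments) and 1 to 8 (difference between segments). Medians then ran from 0.15 to 0.37, -0.02 to 0.27, 0.23 to 0.62, -0.13 to 0.24, -0.31 to -0.19 and -0.45 to -0.02, in the same order. Centring moved the descending median of all genes by 0.11. With the replicate block the averaged count was 6, the descending one 6 and that of the difference between segments 3, and no call changed; same-numbered arrays shared deviations with r from -0.08 to 0.29 over the group pairs, so the numbers were not taken as pairs.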
